A study of Mus musculus with 2 samples.

Results

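Ery 3 is a subcluster of definitive erythroid cells in the E12.5 mouse fetal liver, among the 6 (Ery 1 to Ery 6) that the authors' deposited cell table names. Its members are the cells that carry this name in the table, and no expression threshold was applied to choose them. There were 1392 such cells of 10537 in all, which is 13.2% of the cells (95% Clopper-Pearson interval 12.6 to 13.9) and 15.2% of the 9182 Ery cells. Library 1 held 748 of them (13.6% of its cells) and library 2 held 644 (12.7%).

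All cells came from 1 wild-type liver of strain C57BL/6 in the labels (C57BL/6J in the study's methods), and a flow sort kept single live cells before capture. The suspension was processed as 2 technical replicates on the 10x Chromium system, so both libraries sample the same embryo. With 1 liver there is no biological replicate and no test: every value is given for both libraries, intervals cover counting error only, and the subclusters were made from these same genes, which makes differences between them a description. Ery 3 was set beside its neighbours Ery 2 (557 and 459 cells in libraries 1 and 2) and Ery 4 (1357 and 1202 cells).

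Committed erythroid progenitors divide a few more times as erythroblasts while they fill with hemoglobin, shrink, take up iron and build the spectrin skeleton of the red cell membrane. Heme is made from glycine and succinyl-CoA in a pathway that begins and ends in the mitochondrion, and the growth machinery of the progenitor (ribosome assembly, polyamine and purine synthesis) is shut down as the cell matures. The fetal liver is the main site of this process before birth. Rhd encodes a membrane protein of the Rh blood group complex, and Alas2 the erythroid enzyme that starts heme synthesis. They are the genes followed as markers of Ery 3 here, although neither was highest in it.

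The proximal promoters of both marker genes are shown because they hold motifs that erythroid factors are known to read: GATA1 binds sites with the letters AGATAA and KLF1 binds CACCC boxes. The sequences are from RefSeq on GRCm38.p6, 5′ to 3′ on the plus strand, with matches to AGATAA or CACCC on either strand in capitals. Rhd begins at base 134864536 of chromosome 4, and chr4:134864286-134864535 is the stretch before it. Alas2 begins at base 150547375 of chromosome X in the GENCODE annotation, and chrX:150547167-150547374 is the stretch before it.
Rhd: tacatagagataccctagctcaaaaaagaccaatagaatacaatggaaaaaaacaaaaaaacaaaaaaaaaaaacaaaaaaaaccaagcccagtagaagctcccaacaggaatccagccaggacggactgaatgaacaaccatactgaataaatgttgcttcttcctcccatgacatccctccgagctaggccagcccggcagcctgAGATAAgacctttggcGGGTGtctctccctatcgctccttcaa
Alas2: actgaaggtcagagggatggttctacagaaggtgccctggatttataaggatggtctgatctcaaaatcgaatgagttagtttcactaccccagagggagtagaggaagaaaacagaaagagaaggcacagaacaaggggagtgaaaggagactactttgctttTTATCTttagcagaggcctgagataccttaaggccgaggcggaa
In Rhd the AGATAA match starts 43 bases before the RefSeq start and the CACCC match, read on the opposite strand as GGGTG, 27 bases before it. In Alas2 an AGATAA match lies on the opposite strand (TTATCT), from base 165 of the 208 printed, and no CACCC match falls in the stretch printed. This match starts 86 bases before the RefSeq start of Alas2, base 150547417, which lies beyond the GENCODE start where the printed stretch ends. AGATAA occurs in 10.3% and CACCC in 51.3% of the 250-base windows before the start of 27025 genes, and both in 4.41%. A match is a description of the letters and no measure of binding.

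These markers were present at the following levels. Levels are given as CPM, the number of UMIs (counted mRNA molecules) of a gene per 1000000 UMIs of the subcluster. Rhd reached 1220 CPM in library 1 (95% Poisson interval 1195 to 1245) and 812 CPM in library 2 (793 to 832). Alas2 stood at 905 CPM (884 to 926) and 630 CPM (613 to 647). Library 1 was the higher for both genes. Clusters were named by hand from marker genes, so such levels describe the label and are no independent check of it.

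Neither marker peaked in Ery 3. In library 1, Rhd stood at 191, 540, 1220, 1970, 2403 and 1498 CPM from Ery 1 to Ery 6, and in library 2 at 174, 474, 812, 1160, 1251 and 732 CPM. Alas2 stood at 38.5, 167, 905, 2121, 2817 and 3790 CPM in library 1 and at 48.6, 151, 630, 1263, 1516 and 1962 CPM in library 2. Rhd was highest in Ery 5, and Alas2 was higher in each subcluster than in the one before. The ratio of Ery 3 to Ery 2 was 5.42 and 4.18 for Alas2, and its ratio to Ery 4 was 0.427 and 0.499. In UMIs per cell, Rhd averaged 8.90 and 8.99 in Ery 2, 12.55 and 10.3 in Ery 3, and 11.6 and 11.1 in Ery 4, so per cell Ery 3 and Ery 4 were close.

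To set cells of unequal depth side by side, each cell was thinned to 2300 UMIs, which left out 126 shallower Ery 2 cells, 5 Ery 3 cells and 133 Ery 4 cells, all of library 1. An Rhd UMI was then found in 93.7% (91.7 to 95.3) and 82.3% (79.1 to 85.2) of Ery 3 cells. The share was 63.3% and 60.6% in Ery 2 and 97.5% and 91.5% in Ery 4. Cells that should lack Rhd give a background share, whose source (free RNA or doublets) was not tested. It was 6.25% and 13.8% in monocytes and Kupffer cells (median depth 12888 and 15241.5 UMIs) and 20% and 29.0% in the 25 and 31 thinned cells labelled Hepa (22391 and 21910 UMIs), all below the shares in Ery 3. Without thinning, 98.9% and 99.7% of Ery 3 cells held an Rhd UMI, at median depths of 9066 and 11395.5 UMIs. For Alas2 the thinned shares were 26.9% and 29.2% in Ery 2, 82.8% and 74.1% in Ery 3, and 97.1% and 92.8% in Ery 4, against 4.17% and 12.1% in monocytes and Kupffer cells and 12% and 29.0% in the cells labelled Hepa, so in Ery 2 the library 2 share was level with the highest background.

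The progenitor list held genes close to 0 in Ery 3 and others that were not. Kit, the stem cell factor receptor, was at 1.04 and 0.855 CPM, against 4.03 and 5.74 CPM in Ery 2. Gata2, a factor of early progenitors, was at 0.390 and 0.489 CPM, and Myb, a regulator of immature blood cells, at 2.60 and 3.42 CPM. Klf1, a master regulator of erythroid genes that is not on this list, was at 829 and 635 CPM. The 20 genes of the progenitor list summed to 416 and 385 CPM in Ery 2 and 364 and 272 CPM in Ery 3, and in globin-free CPM to 430.3 and 416 against 431 and 379. Lyl1, a transcription factor gene of blood cells, was the most abundant, at 163 and 153 CPM in Ery 2, 220.2 and 159 CPM in Ery 3, and 304 and 176 CPM in Ery 4, and was called lower than in Ery 4 by the median of ratios alone. Of the 20 genes 3 were high enough to be compared with Ery 2. Myc, a driver of growth, was the 1 called lower (2-fold in both libraries, beside 13.8% of all genes), at 68.2 and 53.0 CPM in Ery 2, 20.1 and 14.05 CPM in Ery 3, and 4.02 and 3.12 CPM in Ery 4.

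Markers of other liver cells were low in Ery 3, and their part in the results was not tested. The 11 macrophage markers summed to 24.96 and 14.7 CPM, with Lyz2 the most abundant at 20.5 and 12.8 CPM and Fcgr1 (library 1) or Adgre1 and Mrc1 (library 2) at 0; in monocytes and Kupffer cells the sum was 13503 and 10158 CPM. The 10 granulocyte markers summed to 112 and 86.6 CPM, all 10 with a UMI, with S100a9 the most abundant at 34.1 and 28.2 CPM. The 9 megakaryocyte markers summed to 34.3 and 32.9 CPM, with Gp9 the most abundant and Gp6 at 0 in library 2. The 11 hepatoblast markers summed to 46.9 and 23.6 CPM, with Afp the most abundant at 15.1 and 6.60 CPM and Hnf4a at 0 in both libraries. The 7 endothelial markers summed to 1.43 and 1.71 CPM, the 4 mast cell markers to 0.390 and 0.244 CPM, and the 5 mesenchymal markers to 0.130 and 0.122 CPM. Of the 5 lymphoid markers all were at 0 in library 1, and 1 UMI of Vpreb1 was found in library 2. Endothelial, mast cell, mesenchymal and lymphoid lists thus each summed to under 2 CPM.

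Ery 3 cells held fewer transcripts than Ery 2 cells and more of them were globin. Their median depth was 9066 and 11395.5 UMIs, against 18254 and 20317 in Ery 2 and 5790 and 8995 in Ery 4. The median number of genes detected was 2156.5 and 2149.5, against 3568 and 3570 in Ery 2 and 1375 and 1409 in Ery 4. The 4 adult globin genes took a median of 17.1% and 31.0% of a cell's UMIs, against 2.06% and 5.85% in Ery 2 and 35.4% and 57.1% in Ery 4. In every subcluster library 2 had the larger globin share, which takes up a larger part of the CPM total there. The libraries also differed in the lowest depth kept: the shallowest cell held 504, 578 and 512 UMIs in Ery 2, Ery 3 and Ery 4 of library 1, and 4398, 4387 and 4394 in library 2. The part of this difference in depths, gene numbers and cell shares between libraries was not tested. Outside the globins, a cell averaged 15955 and 17573 UMIs in Ery 2, 8689 and 9124 in Ery 3, and 3768 and 4136 in Ery 4. Fewer molecules per cell and lower capture of them cannot be told apart.

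**Figure D1:**
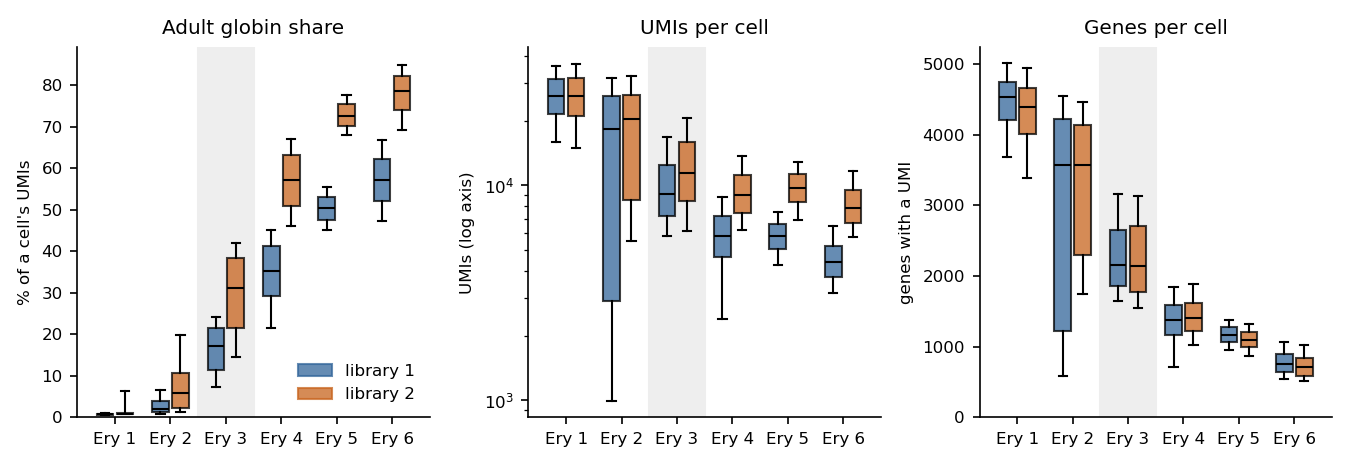
Share of UMIs from adult globin genes (left), UMIs per cell on a log axis (middle) and genes detected per cell (right) in the 6 Ery subclusters, with Ery 3 shaded; boxes span the quartiles with the median as a line, whiskers reach the 10th and 90th percentile, and colours mark the libraries. Ery 3 sits between Ery 2 and Ery 4 in all 3 measures, with median globin shares of 17.1% and 31.0%; the long Ery 2 boxes include 220 shallow cells of library 1.

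Some cells of the neighbours stood apart from the rest. Ery 2 included a numbered cluster of 220 and 95 cells with a median of 1778 and 6833 UMIs and 0.0780% and 0.418% mitochondrial UMIs, and Ery 4 one of 223 and 121 cells with 20.1% and 4.52% mitochondrial UMIs. Without them the 4 counts of called genes given next were 49, 331, 442 and 17. In Ery 3 the mitochondrial share was 3.62% and 2.91%. The libraries shared 31 barcodes, 10 of them with an Ery 3 cell and none between the Ery 3 cells of both libraries.

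The libraries agreed over most genes of Ery 3 and differed strongly at a few. Over the 1887 genes with at least 50 CPM in both libraries, the correlation of log2 levels between libraries was 0.982. That rule leaves out genes low in 1 library, among them Gstp1, Hist1h2ap, Pgk1 and Usp50 given below. Among the 2255 genes with at least 50 CPM in either library, 44 differed at least 2-fold. Of these, 30 were higher in library 1 (1.33%) and 14 in library 2 (0.621%), and 33 of the 44 differed likewise in Ery 2 and Ery 4. For Gstp1, a glutathione transferase gene, the levels were 144 CPM (library 1) and 2.69 CPM (library 2), for Hist1h2ap 1108 and 25.5 CPM, and for Pgk1, a glycolytic enzyme gene, 89.8 and 2.81 CPM. Usp50 (59.8 and 8.43 CPM) was also higher in library 1. With ribosomal genes, pseudogenes and unnamed models left out, Hba-x, Hbb-y, Cdk2ap1, Hypk and Hba-a2 were the genes highest in library 2 relative to library 1. The matrix header of library 1 names software version 3.0.0, and the cause of these differences was not tested. Since a call needed the same direction within each library, a shift of a whole library did not by itself make a call.

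Globin took a growing share of UMIs from Ery 2 to Ery 4, and the number of genes called depended on the scale. How much of this came from globin was not tested. A gene was called when its level differed by at least 2-fold in the same direction in both libraries, among genes with at least 50 CPM in the higher subcluster in each. Against Ery 2, 52 of 2523 genes were called higher in Ery 3 (2.06%) and 347 lower (13.8%) in CPM. After the 4 adult globins were left out of the totals (globin-free CPM), 156 of 2777 were called higher (5.62%) and 193 lower (6.95%), and with size factors from the median of ratios the split was 168 higher (8.04%) and 98 lower (4.69%) of 2089. Against Ery 4, 446 of 1934 genes were called higher (23.1%) and 18 lower (0.931%) in CPM. In globin-free CPM 151 of 2635 were called higher (5.73%) and 207 lower (7.86%), and by the median of ratios 72 higher (3.34%) and 257 lower (11.9%) of 2156. More genes were thus called lower than higher against Ery 2 in CPM and globin-free CPM and fewer by the median of ratios, and against Ery 4 more were called higher in CPM and fewer on both other scales. With library 1 alone, 130 genes were called higher than in Ery 2 and 53 lower than in Ery 4 in CPM, and with library 2 alone 763 were called higher than in Ery 4.

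The median log2 ratio of all genes compared with Ery 2 was -0.37 and -0.52 in CPM and -0.14 and -0.12 in globin-free CPM. Against Ery 4 it was 0.53 and 0.81 in CPM and 0.05 and 0.0048 in globin-free CPM. All 52 genes called higher than in Ery 2 and all 18 called lower than in Ery 4 were called on the other scales too. Of the 347 called lower than in Ery 2, 180 were called in globin-free CPM and 98 by the median of ratios, and of the 446 called higher than in Ery 4, 113 and 72 were.

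The adult globins were the clearest group. Hbb-bs, an adult beta-globin gene, averaged 223 and 504 UMIs per cell in Ery 2, 711 and 1415 in Ery 3, and 950 and 2198 in Ery 4. Hba-a1, an adult alpha-globin gene, stood at 6559 and 17370 CPM in Ery 2, 29751 and 65051 CPM in Ery 3, and 63754 and 120815 CPM in Ery 4. All 4 adult globins were called higher in Ery 3 than in Ery 2 on each scale, beside 2.06%, 5.62% and 8.04% of all genes in CPM, globin-free CPM and by the median of ratios, with a median log2 ratio of 2.21 and 1.94 in CPM. Against Ery 4, Hba-a2 and Hbb-bs were called lower in CPM (beside 0.931%) and all 4 in globin-free CPM (beside 7.86%). The near-identical alpha genes Hba-a1 and Hba-a2, and the beta genes Hbb-bs and Hbb-bt, share sequence, so reads may be split between them. In free RNA the 4 genes summed to 193381 and 379293 CPM, above their Ery 3 sum of 155222 and 282169 CPM. They took 1.09% and 3.67% of summed UMIs in monocytes and Kupffer cells, and 1.76% and 4.78% in cells labelled Hepa. In Ery 2 this was 3.24% and 7.33%. The part of free RNA in the adult globin levels was not tested.

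Of the 3 embryonic globins, which are made chiefly in primitive red cells, Hbb-bh1 followed the adult genes. It stood at 293 and 256 CPM in Ery 2, 1502 and 1065 CPM in Ery 3, and 4727 and 2769 CPM in Ery 4. A UMI of Hbb-bh1 was found in 48.2% and 37.7% of thinned Ery 3 cells, against 20.8% and 12.1% in monocytes and Kupffer cells, 18.1% and 23.1% in the cells labelled G and 12% and 25.8% in those labelled Hepa. Hba-x and Hbb-y were not so ordered in both libraries. Hbb-bh1 and Hba-x were called higher than in Ery 2 on each scale (2 of 3, beside 2.06%, 5.62% and 8.04% of all genes). Hbb-bh1 alone was called lower than in Ery 4 on each scale (1 of 3, beside 0.931%, 7.86% and 11.9%). Hbb-y stood at 356 and 580 CPM in Ery 2, 532 and 2058 CPM in Ery 3, and 1486 and 351 CPM in Ery 4, so against Ery 4 the libraries went opposite ways. Hba-x stood at 28.9 and 83.4, 66.6 and 292, and 209 and 68.4 CPM in the same order. Both genes were abundant in free RNA, at 11531 and 10355 CPM for Hbb-y and at 1003 and 1059 CPM for Hba-x. The 3 embryonic globins summed to 15252 and 14009 CPM there, which leaves Hbb-bh1 above its Ery 3 level too. The part of free RNA was not tested for any of the 3 genes. The alpha-like globin gene Hbq1b was at 28.5 and 13.6 CPM in Ery 2 and 172 and 59.4 CPM in Ery 3.

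Of the heme synthesis genes, 1 of 12 was called higher than in Ery 2 in CPM, beside 2.06% of all genes, and 5 of 12 in globin-free CPM, beside 5.62%. Their summed level was 7687 and 6689 CPM in Ery 2, 12985 and 9712 CPM in Ery 3, and 14959 and 9449 CPM in Ery 4. Alas2 was the 1 called in CPM, and Alas2, Urod, Ppox, Fech and Abcb10 in globin-free CPM, with a median log2 ratio over the 12 of 0.82 and 0.56 in CPM against -0.37 and -0.52 over all genes. Fech, the ferrochelatase that inserts iron into the ring, stood at 377 and 378 CPM in Ery 2, 841 and 678 CPM in Ery 3, and 1369 and 915 CPM in Ery 4. The late enzyme Fech and the first enzyme Alas2 were the ones called lower than in Ery 4 in globin-free CPM, and Alas2 alone in CPM (2 and 1 of 12, beside 7.86% and 0.931%). For the list as a whole, the order of Ery 3 and Ery 4 depended on the library in CPM, and Ery 3 was the lower of both in globin-free CPM.

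Among iron genes, 2 of 14 were called higher than in Ery 2 in CPM (beside 2.06% of all genes). Tfrc, the transferrin receptor that brings iron into the cell, stood at 165 and 147 CPM in Ery 2, 439 and 303 CPM in Ery 3, and 558 and 343 CPM in Ery 4. Slc25a37 (mitoferrin), which carries iron into mitochondria, stood at 238 and 198, 900 and 631, and 1819 and 1113 CPM. These were the genes called, in globin-free CPM too, and by the median of ratios 4 of 14 were, Fth1 and Ftl1 being added (beside 8.04%). Against Ery 4, 0 of 13 were called in CPM, and Slc25a37 was called lower of 14 in globin-free CPM (beside 7.86%). The ferritin heavy chain Fth1, which stores iron, was at 6825 and 5663 CPM in Ery 2 and 11217 and 8131 CPM in Ery 3, under the fold of a call in CPM.

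Genes of the red cell membrane skeleton and surface were next. Slc4a1, the band 3 anion exchanger that anchors the skeleton, stood at 190 and 167 CPM in Ery 2, 901 and 602 CPM in Ery 3, and 1565 and 882 CPM in Ery 4. A UMI of Slc4a1 was found in 32.0% and 30.7% of thinned Ery 2 cells, 85.7% and 73.1% of Ery 3 cells, and 95.9% and 84.7% of Ery 4 cells, against 8.33% and 8.62% of monocytes and Kupffer cells and 12% and 16.1% of the cells labelled Hepa. Ery 3 thus lay nearer to Ery 4 than to Ery 2 in this share. Of 13 skeleton genes compared with Ery 2, 5 were called higher in CPM (beside 2.06% of all genes), among them Slc4a1, the spectrin gene Sptb, Epb42 (protein 4.2) and Dmtn (dematin). In globin-free CPM 7 of 14 were called higher (beside 5.62%), Tmod1 and Stom being added, and the summed level went from 1098 and 985 CPM in Ery 2 to 2496 and 1742 CPM in Ery 3 and 3842 and 2205 CPM in Ery 4. Against Ery 4, 0 of 14 were called in CPM and 7 lower in globin-free CPM (beside 7.86%).

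Among 12 blood group and surface protein genes compared with Ery 2 in CPM, 1 was called higher (beside 2.06% of all genes) and 1 lower (beside 13.8%), the latter being Aqp1, the water channel gene. Aqp1 stood at 72.0 and 65.1 CPM in Ery 2, 33.7 and 26.9 CPM in Ery 3, and 8.55 and 6.24 CPM in Ery 4. In globin-free CPM 7 of 13 were called higher (beside 5.62% of all genes), among them Rhd, its partner Rhag and the Kell protein gene Kel, and Aqp1 was not called. Against Ery 4, 0 of 9 were called in CPM, and 3 of 12, Rhd and Kel among them, were called lower in globin-free CPM (beside 7.86%) and 8 of 11 by the median of ratios (beside 11.9%). Ackr1, the Duffy blood group protein gene, ranked first among the genes called higher than in Ery 2 (by the library with the smaller ratio), at 26.0 and 20.2 CPM in Ery 2, 125 and 90.4 CPM in Ery 3, and 203 and 128 CPM in Ery 4 (ratio to Ery 2 of 4.81 and 4.47).

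**Figure D2:**
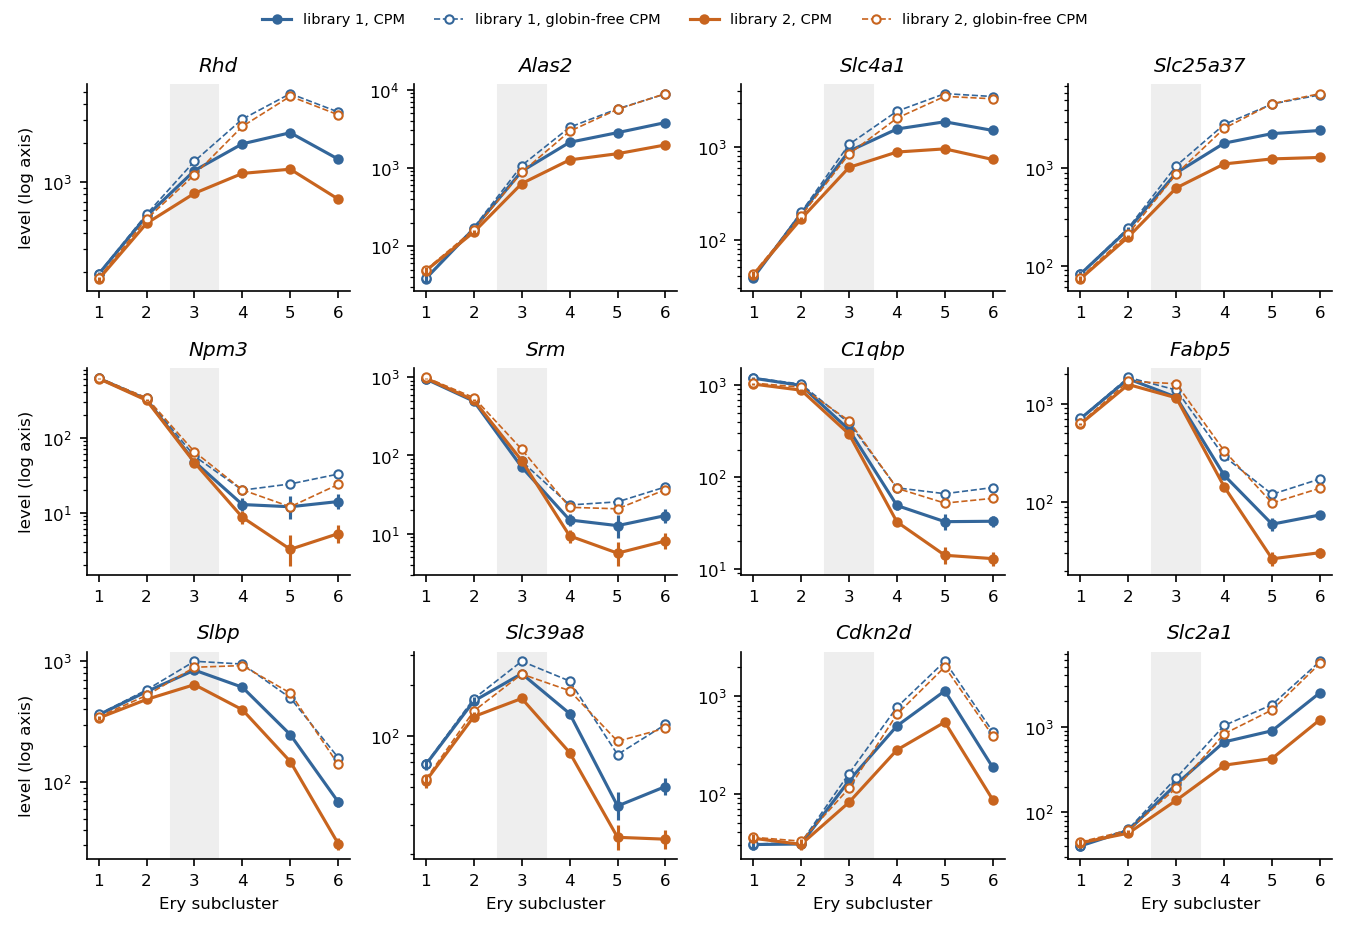
Levels of 12 genes (log axes) across Ery 1 to Ery 6, with Ery 3 shaded; filled points and solid lines are CPM with 95% Poisson intervals, open points and dashed lines are globin-free CPM, and colours mark the libraries. Rhd, Alas2, Slc4a1 and Slc25a37 climb through Ery 3, Npm3, Srm and C1qbp drop through it, Fabp5 differs from Ery 2 by less than 2-fold and drops after it, and Slc39a8 is highest in it on both scales.

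The genes called lower than in Ery 2 with the largest ratios are given singly, since no list was set for them as a group. Npm3, a nucleoplasmin-family chaperone, stood at 325 and 315 CPM in Ery 2, 47.8 and 46.5 CPM in Ery 3, and 12.8 and 8.67 CPM in Ery 4. Srm (spermidine synthase, of polyamine synthesis) stood at 494 and 509, 71.0 and 86.0, and 14.96 and 9.36 CPM. Tagln2, an actin-binding protein gene, had the lowest ratio of them, from 80.7 and 106 CPM to 7.93 and 11.4 CPM, and was at 8.17 and 4.94 CPM in Ery 4. The other genes named by rank were Fam195a, Bzw2, Bri3bp, Psmb10, Cenpv, Rangrf and Cnn3. Psmb10, an immunoproteasome subunit, was the 1 of 35 proteasome genes called lower than in Ery 2, a smaller share than the 13.8% of all genes, at 53.1 and 76.2 CPM against 9.10 and 12.9 CPM.

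Against Ery 4, some genes that were already below their Ery 2 level in Ery 3 were lower still in Ery 4. C1qbp, a mitochondrial matrix protein gene, stood at 995 and 885 CPM in Ery 2, 329 and 295 CPM in Ery 3, and 49.3 and 32.7 CPM in Ery 4. Lyar, a nucleolar protein gene, stood at 501 and 487, 143 and 148, and 22.8 and 15.9 CPM. The kinase gene Cdk4, which drives entry into S phase, stood at 707 and 634, 275 and 260, and 48.9 and 33.5 CPM. For these 3 genes each step was a call in CPM in both comparisons. Fabp5, a fatty acid binding protein gene, differed from them: it stood at 1791 and 1568 CPM in Ery 2 and 1165 and 1148 CPM in Ery 3, not a call, and at 187 and 143 CPM in Ery 4. The other genes named by rank were Phgdh (serine synthesis), Rpf2 (ribosome assembly), Hspe1 (mitochondrial chaperonin), Aprt (purine salvage), Apex1 (DNA repair) and Hmgn1 (nucleosome binding).

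Npm1 (nucleophosmin) and Hspd1 (the mitochondrial chaperonin Hsp60), chosen after their values were seen, showed the same order. Npm1 stood at 4770 and 4422 CPM in Ery 2, 1084 and 1090 CPM in Ery 3, and 233 and 147 CPM in Ery 4. Hspd1 stood at 1373 and 1283, 298 and 302, and 57.3 and 41.8 CPM. Both were called in each comparison in CPM and in globin-free CPM.

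The genes called lower than in Ery 4 in CPM were few, and those ranked highest included Cdkn2d, Hist1h2bc, Hbb-bh1, Slc2a1, Ypel5, Bcl2l1, Hba-a2, Ypel3 and Hist3h2a. Ypel5, a zinc-binding protein gene, stood at 10.3 and 8.50 CPM in Ery 2, 36.3 and 23.5 CPM in Ery 3, and 97.4 and 57.2 CPM in Ery 4, and its relative Ypel3 at 23.3 and 23.8, 77.9 and 47.5, and 194 and 108 CPM. Both genes thus stood in Ery 3 below Ery 4 and above Ery 2, although neither reached the minimum level for the comparison with Ery 2 in CPM. Ypel5 was under it in both libraries and Ypel3 in library 2.

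Cytosolic ribosomal protein genes were not called against Ery 2, and all 81 compared lay above their Ery 4 level in CPM. Their summed level was 266856 and 277741 CPM in Ery 2, 215043 and 209175 CPM in Ery 3, and 98342 and 84681 CPM in Ery 4. Of 81 compared with Ery 2, 0 were called on any scale, with a median log2 ratio of -0.34 and -0.44, in CPM, close to the -0.37 and -0.52 of all genes. The direction against Ery 2 turned with the scale: by the median of ratios the median was -0.02 and 0.07, with 36 genes above 0 and 16 below 0 in both libraries, against 0 and 80 in CPM. Against Ery 4, 61 of 81 were called higher in CPM (beside 23.1% of all genes) and 1 (Rpl5) in globin-free CPM (beside 5.73%), where all 81 still had a log2 ratio above 0 in both libraries, with a median of 0.74 and 0.58. By the median of ratios 78 of 81 did.

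Of the glycolysis genes, 4 of 12 were called lower than in Ery 2 in CPM, beside 13.8% of all genes, and 4 of 12 higher than in Ery 4, beside 23.1%. Ldha, lactate dehydrogenase, stood at 1473 and 1456 CPM in Ery 2, 479 and 499 CPM in Ery 3, and 118 and 82.6 CPM in Ery 4. Those lower than in Ery 2 were Gpi1, Pgam1, Pkm and Ldha, with Gpi1, Pkm and Ldha called in globin-free CPM too (beside 6.95% of all genes). Those higher than in Ery 4 were Gpi1, Tpi1, Pkm and Ldha, with Gpi1 and Ldha called in globin-free CPM too (beside 5.73%). The list's Pgk1 differed between the libraries within Ery 3, as given above, and was not called. Slc2a1, the glucose transporter GLUT1, went the other way, at 61.6 and 57.2 CPM in Ery 2, 213 and 138 CPM in Ery 3, and 663 and 355 CPM in Ery 4. It was the 1 of 11 nutrient transporters called higher than in Ery 2 in CPM (beside 2.06% of all genes) and the 1 of 12 called lower than in Ery 4 (beside 0.931%). In globin-free CPM 5 of 13 were called higher than in Ery 2 (beside 5.62% of all genes) and 5 of 13 lower than in Ery 4 (beside 7.86%).

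Among nuclear genes of the respiratory chain, 2 of 79 (Sdhd and Atp5g2) were called lower than in Ery 2 in CPM and 0 of 82 in globin-free CPM, below the 13.8% and 6.95% of all genes. Against Ery 4, 8 of 76 were called higher in CPM and 3 of 79 (Ndufb5, Ndufaf4 and Atp5g2) in globin-free CPM, both below the 23.1% and 5.73% of all genes. Of 10 mitochondrially encoded genes 0 were called in either comparison, and their median log2 ratio to Ery 2 was 0.51 and 0.24 in CPM. For the nuclear list the median was -0.24 and -0.40 in CPM, near the -0.37 and -0.52 of all genes, and it turned with the scale, to 0.08 and 0.13 by the median of ratios, with 47 genes above 0 and 27 below 0 in both libraries. The 4 proteasome genes called higher than in Ery 4 in CPM, of 34, were Psmb2, Psma4, Psmb3 and Psmd3, a smaller share than the 23.1% of all genes, and 0 of 34 were called in globin-free CPM.

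**Figure D3:**
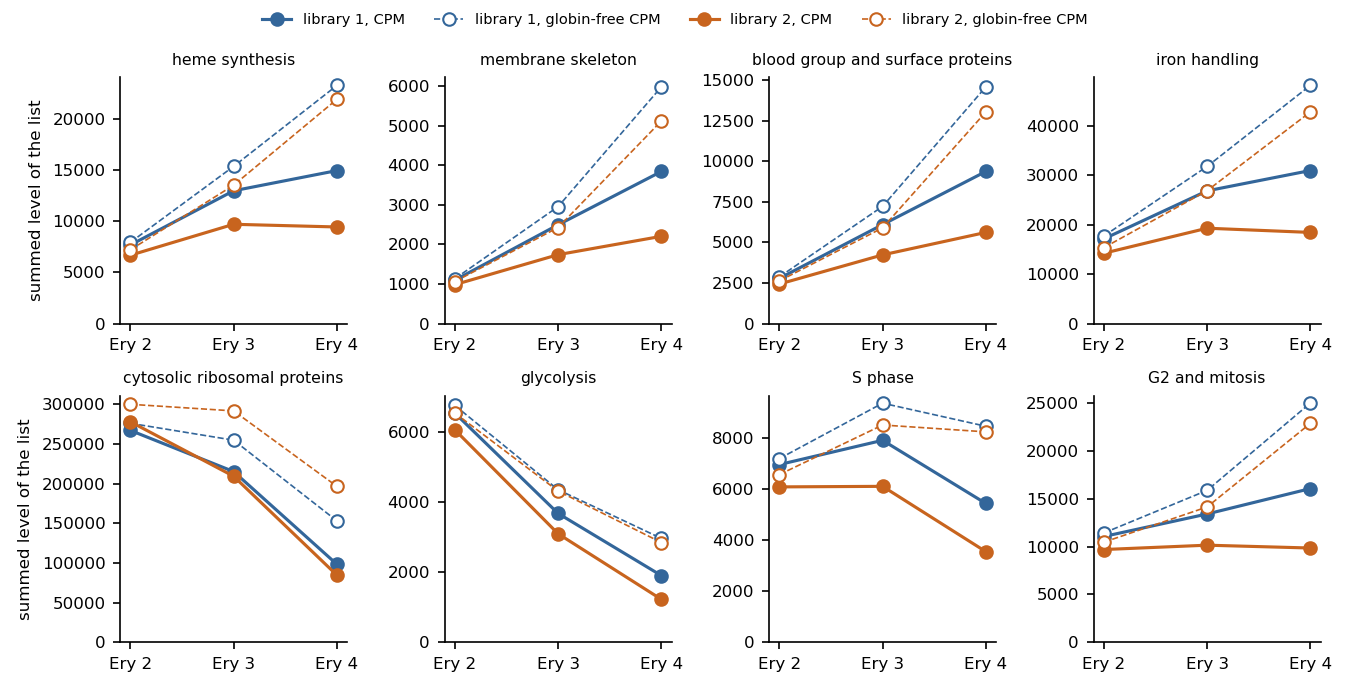
Summed levels of 8 gene lists in Ery 2, Ery 3 and Ery 4; filled points and solid lines are CPM, open points and dashed lines are globin-free CPM, and colours mark the libraries (axes start at 0). The membrane skeleton and blood group lists are higher in Ery 3 than in Ery 2 on both scales, glycolysis and ribosomal protein lists are lower, and the order of Ery 3 and Ery 4 for heme synthesis, iron handling and G2 and mitosis depends on the library in CPM.

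Of the erythroid transcription factors, 15 of 17 were not called against Ery 2 in CPM and 15 of 16 not against Ery 4, with more calls on the other scales. E2f2, a cell cycle factor of erythroblasts, stood at 29.6 and 24.0 CPM in Ery 2, 108 and 75.7 CPM in Ery 3, and 183 and 113 CPM in Ery 4. Sox6, a repressor of embryonic globin, stood at 31.2 and 24.1, 79.8 and 63.5, and 121 and 72.7 CPM. These were the 2 of 17 factors called higher than in Ery 2 in CPM (beside 2.06% of all genes), with Nfe2, Foxo3 and Klf3 added in globin-free CPM (5 of 18, beside 5.62% of all genes). Bcl11a, a globin gene repressor, was the 1 of 16 called higher than in Ery 4 (beside 23.1% of all genes), at 160 and 136 CPM in Ery 2, 109 and 91.4 CPM in Ery 3, and 35.7 and 21.6 CPM in Ery 4. In globin-free CPM Bcl11a was again called higher, and Klf3, E2f2 and Mafg lower, of 17 (beside 5.73% and 7.86%), and by the median of ratios 7 of 17 were called lower than in Ery 4, beside 11.9% of all genes. Klf1 was not called in either comparison, and in UMIs per cell it went from 11.6 and 11.8 in Ery 2 to 8.53 and 8.08 in Ery 3 and 5.15 and 5.24 in Ery 4. In globin-free CPM Klf1 rose instead, from 725 and 671 in Ery 2 to 982 and 885 in Ery 3 and 1368 and 1266 in Ery 4. The direction for Klf1 thus depended on the measure.

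Most Ery 3 cells were assigned to S phase in the deposited table, 72.6% and 78.7%, close to Ery 2 (74.1% and 81.7%) and above Ery 4 (33.6% and 38.6%). The G2M share differed between libraries, at 19.3% and 3.57% of Ery 3 cells, and the deposited G2M score was exactly 0 in 68.3% of Ery 3 cells of library 1 and in 0% of library 2. The G1 share differed as well, at 8.16% and 17.7% of Ery 3 cells. The calls are therefore not comparable between libraries for G2M or G1. The part of depth and free RNA in them was not tested.

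Levels of the genes of these phases are given beside the calls. Summed S phase genes stood at 6963 and 6088 CPM in Ery 2, 7912 and 6110 CPM in Ery 3, and 5439 and 3553 CPM in Ery 4. Of 33 compared with Ery 2, E2f8 was called higher and Cdca7 lower, beside 2.06% and 13.8% of all genes, and in globin-free CPM too (of 36, beside 5.62% and 6.95%). Against Ery 4, 7 of 28 were called higher in CPM, among them the helicase genes Mcm4 and Mcm5, a share near the 23.1% of all genes. Nasp, a histone chaperone gene, was the 1 of 34 in globin-free CPM, beside 5.73% of all genes. Of 31 genes of G2 and mitosis, Nusap1, Mki67 and Cenpf were called higher than in Ery 2 in CPM (beside 2.06% of all genes) and 6 of 37 in globin-free CPM (beside 5.62%). Against Ery 4, 0 of 34 were called in CPM and 8 of 45 lower in globin-free CPM (beside 7.86%).

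Regulators of the cycle split. Cdkn2d, which encodes the CDK inhibitor p19, stood at 30.4 and 30.1 CPM in Ery 2, 136 and 81.4 CPM in Ery 3, 495 and 280 CPM in Ery 4, and 1132 and 542 CPM in Ery 5. Btg2, an antiproliferative gene, stood at 53.0 and 43.9 CPM in Ery 2, 174 and 122 CPM in Ery 3, and 230 and 142 CPM in Ery 4. Cdkn2d and Btg2 were the 2 of 4 cell cycle brakes called higher than in Ery 2 in CPM (beside 2.06% of all genes), with Cdkn2c added among 5 in globin-free CPM (beside 5.62%). Against Ery 4, Cdkn2d was called lower and Pa2g4 higher of 5 in CPM (beside 0.931% and 23.1%), and Cdkn2c, Cdkn2d and Gadd45a lower of 6 in globin-free CPM (beside 7.86%). Among cyclins and kinases, the phosphatase gene Cdc25b (48.2 and 40.2 CPM in Ery 2, 175 and 134 CPM in Ery 3) and the cyclin gene Ccnd3 (479 and 416, 1124 and 878 CPM) were called higher than in Ery 2, of 6 (beside 2.06%), and Cdk4 lower (beside 13.8%). Cdk4 was not called against Ery 2 in globin-free CPM.

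All 5 Hist1h1 linker histone genes of the histone list, Hist1h1a to Hist1h1e, were called higher than in Ery 2 in CPM, of 13 (beside 2.06% of all genes), and 8 of 13 in globin-free CPM (beside 5.62%). Hist1h1c stood at 45.5 and 43.3 CPM in Ery 2, 155 and 112 CPM in Ery 3, and 416 and 234 CPM in Ery 4. H1f0, the replacement linker histone, stood at 72.2 and 58.1, 91.8 and 80.3, and 38.1 and 17.1 CPM. Against Ery 4, H1f0 was called higher, and Hist1h1c and Hist1h2bc lower, of 13 in CPM (beside 23.1% and 0.931%). In globin-free CPM 8 of 14 were called lower (beside 7.86%) and H1f0 was not called. Replication-dependent histone transcripts largely lack the poly(A) tail on which capture in this assay relies.

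Stress genes were called in both directions. Ppp1r15a, which reverses eIF2alpha phosphorylation, was the 1 of 9 stress genes called higher than in Ery 2 in CPM (beside 2.06% of all genes), at 61.6 and 49.9 CPM in Ery 2 and 173 and 116 CPM in Ery 3. The heat shock protein genes Hspa8, Hspa9 and Hsp90ab1 were called lower, 3 of 9 beside 13.8% of all genes, of which Hspa9 was called lower in globin-free CPM too. Eif2ak1, the heme-regulated kinase of eIF2alpha, was at 60.4 and 54.3 CPM in Ery 2 and 120 and 90.4 CPM in Ery 3, a call in globin-free CPM. Pim1, a target of erythropoietin signals, stood at 56.9 and 86.3 CPM in Ery 2, 199 and 197 CPM in Ery 3, and 488 and 341 CPM in Ery 4, the 1 of 2 called higher than in Ery 2 (beside 2.06%). Bcl2l1 (BCL-XL), which protects late erythroblasts from death and stands in both the erythropoietin and the Bcl2 family list, was at 39.1 and 31.9 CPM in Ery 3 and 115 and 77.2 CPM in Ery 4, the 1 of 3 and of 2 members called lower than in Ery 4 (beside 0.931%). Against Ery 4, 5 of 9 stress genes were called higher in CPM (beside 23.1% of all genes), and 3 higher and 2 lower of 11 in globin-free CPM (beside 5.73% and 7.86%).

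Few genes were highest in Ery 3 among the 6 subclusters. With a margin of at least 25% over each other subcluster in both libraries, 10 of 1887 genes (0.53%) met this in CPM: Pdia2, Wipi1, Acp5, 2810417H13Rik, Cenpk, Slbp, Scoc, E2f1, Slc39a8 and Tmem14c. In globin-free CPM 3 of 2357 (0.127%) did, H1f0, Klf13 and Slc39a8. Slc39a8 alone, a zinc and manganese importer gene at chr3:135825279-135888572, met it on both scales. It stood at 68.1, 161, 234, 136, 38.7 and 50.4 CPM from Ery 1 to Ery 6 in library 1 and at 54.4, 131, 167, 80.0, 25.3 and 24.6 CPM in library 2. Slbp, which binds histone mRNA, stood at 562 and 484 CPM in Ery 2, 847 and 642 CPM in Ery 3, and 611 and 398 CPM in Ery 4. Tmem14c, a porphyrin transporter gene of the mitochondrion, stood at 2379 and 1986, 3199 and 2495, and 1792 and 1319 CPM. In globin-free CPM Slbp was nearly level from Ery 3 (1002 and 894) to Ery 4 (951 and 923), so its peak is a matter of scale.

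Cells within Ery 3 spread along the same axis. In each library the cells were ordered by adult globin share and divided into 3 groups of equal size, with median shares of 9.27%, 17.0% and 22.9% in library 1 and 18.1%, 31.0% and 40.1% in library 2. Median depth was 11714, 8838 and 8049.5 UMIs in library 1 and 14977, 10617.5 and 10379 in library 2. S phase calls were 77.5%, 75.5% and 64.8% in library 1 and 85.1%, 79.4% and 71.6% in library 2. The share of non-globin UMIs from S phase genes did not fall likewise, with a rank correlation with globin share of 0.10 and 0.12. From the group with the least globin to that with the most, 66 of 2533 genes were called higher (2.61%) and 55 lower (2.17%) in globin-free CPM. The cells were ordered by a measured value, so these counts are a description. Between the numbered clusters of the deposited table that make up Ery 3, cluster 0 (458 and 353 cells) and cluster 7 (290 and 291 cells), 18 of 2508 genes (0.718%) were called higher in cluster 0 and 42 (1.67%) lower on the same scale.

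Alas2 went from 527 to 1824 in library 1 and from 465 to 1528 in library 2 (globin-free CPM, group with the least against the most globin). Cdkn2d went from 65.6 to 334 and from 44.4 to 235, and Slc2a1 from 108 to 448 and from 100.2 to 340. These 3 genes were among those called higher along the ordering. Npm1 went from 1963 to 587 and from 2156 to 706, Hspd1 from 544 to 150 and from 602 to 182, and Srm from 128 to 37.9 and from 171 to 53.0. Rhd went from 994 to 1991 and from 836 to 1590, and Slc4a1 from 720 to 1494 and from 550 to 1275. Slc39a8, in contrast, was level, at 268 and 270 in library 1 and 222 and 234 in library 2.

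**Figure D4:**
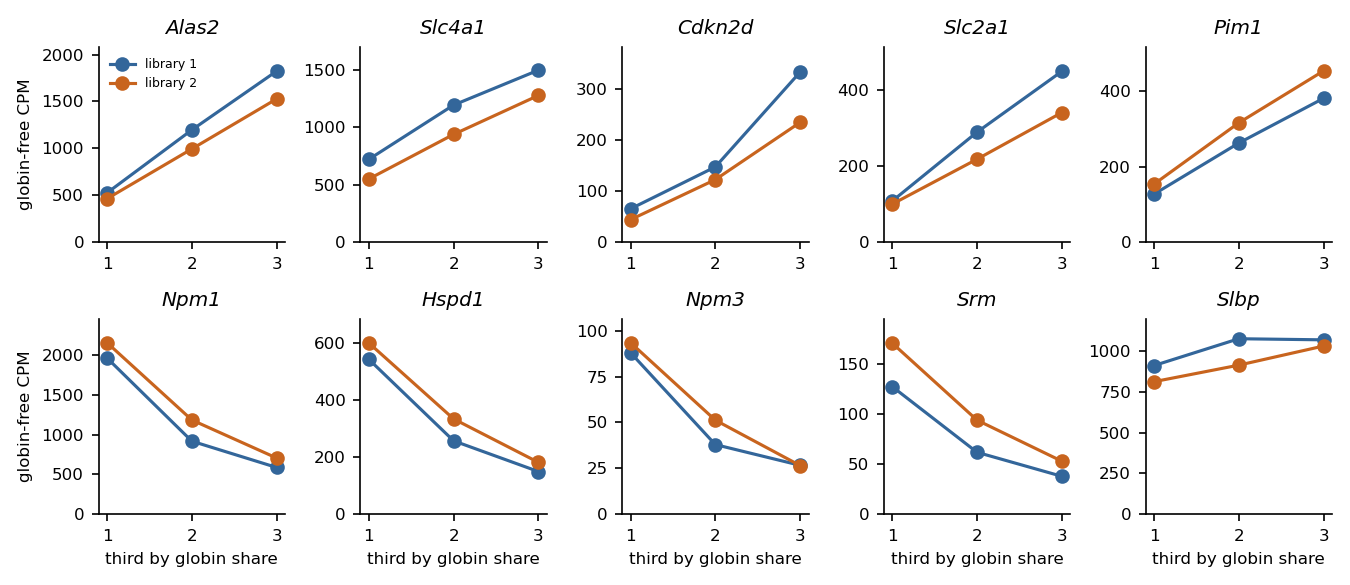
Globin-free CPM of 10 genes in Ery 3 cells divided into 3 equal groups by adult globin share (1 the least, 3 the most), with lines joining the groups of a library and colours marking the libraries. Alas2, Slc4a1, Cdkn2d, Slc2a1 and Pim1 are higher in each group than in the one before, Npm1, Hspd1, Npm3 and Srm are lower, and Slbp changes least.

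The remaining lists gave 0 to 3 calls each in CPM. Of 15 antioxidant and heme breakdown genes 0 were called against Ery 2 in CPM and 1 of 16 (Gpx1, glutathione peroxidase) higher in globin-free CPM, beside 5.62% of all genes. Against Ery 4, 0 of 14 were called in CPM and Gpx1 lower of 15 in globin-free CPM, beside 7.86%. In mitophagy and ubiquitin genes, Ube2l6 and Trim10 were called higher and Gabarapl1 lower than in Ery 2, of 13 in CPM (beside 2.06% and 13.8%), and 4 of 14 higher in globin-free CPM, beside 5.62% of all genes. Against Ery 4, 0 of 12 were called in CPM and 7 of 13 lower in globin-free CPM, beside 7.86% of all genes. Of 11 nuclear condensation genes 0 were called against Ery 2 in CPM and 1 of 12 (Lbr) higher in globin-free CPM, beside 5.62%. Against Ery 4, H1f0 and Rac2 were called higher of 11 in CPM (beside 23.1%), and Xpo7, Lbr and Mxi1 lower of 13 in globin-free CPM (beside 7.86%). Of the 2 carbonic anhydrase genes compared, 0 were called in CPM and Car1 was called higher than in Ery 2 in globin-free CPM (beside 5.62%). Neither DNA methylation genes (0 of 2 in both comparisons in CPM) nor Bcl2 family genes against Ery 2 (0 of 2) gave a call.

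AGATAA was more often found before genes called higher than in Ery 2 than before those called lower. In globin-free CPM, 131 of the 156 genes called higher had a RefSeq window and 16 of them held AGATAA (12.2%), against 6 of 167 called lower (3.59%) and 6.21% of the 2269 compared genes with a window. CACCC was found in 65.6%, 57.5% and 53.4%. Among genes called lower than in Ery 4, 19 of 167 (11.4%) held AGATAA, and among those called higher 11 of 132 (8.33%), beside 6.85% of the genes compared. Those comparisons share the Ery 3 cells, and the shares carry no test. They also share genes: 81 of the 156 called higher than in Ery 2 are among the 207 called lower than in Ery 4. Over all 27025 genes with a window, AGATAA was found in 10.3%.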

How the data were processed

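The deposited files hold whole-number UMI counts per gene and barcode for the 2 libraries. Per the labels and the study's methods, the authors processed reads with bcl2fastq 2 and Cell Ranger 2.1.1 on mm10, then filtered, merged, normalised and clustered cells with Seurat 3.2.0 and named clusters by hand from marker genes; the column of numbered clusters carries a resolution of 1.2 in its name, whereas the study's methods state a lower one. Phases and the deposited S and G2M score are the authors' values, and how they were called is not given in the sources used here. The sort removed doublets before capture and no doublet caller was run here.

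Subcluster names and libraries were taken from the deposited table and joined to the counts by barcode. UMIs were summed per subcluster and library: Ery 3 held 7693380 and 8185359 UMIs, and the kept cells 51969226 and 62738015 in all. Levels are CPM, globin-free CPM (without the 4 adult globin genes) or counts scaled by the median of ratios. CPM levels carry exact Poisson and shares exact Clopper-Pearson 95% intervals. A gene was compared at 50 CPM or more in the higher subcluster in each library, and called at a 2-fold ratio in the same direction in both. Free RNA is the level over uncalled barcodes of 1 to 50 UMIs. Thinning went to 2300 UMIs per cell, near the 10th percentile of depth (2376) in Ery 4 of library 1. By median this was the shallowest group of Ery 2, Ery 3 and Ery 4. With 1 liver no test was run. Genes are named by rank (10 in each direction of a comparison, 10 highest in Ery 3, 5 in each direction between libraries) or as members of 35 gene lists; ribosomal genes, pseudogenes and unnamed models were counted but not named by rank, except 2810417H13Rik, which like Npm1, Hspd1, Nop58, Nhp2, Mgst3, Ube2l6 and Acp5 was named after values were seen. The members and lists were chosen with earlier results of these data known. A few genes that the naming rule picked are not reported here. The code for the calls was checked on simulated counts. Promoter windows matched by symbol or unique synonym, the first window per gene. The software was matplotlib 3.10.9 for figures, with scipy 1.17.1 for intervals, and pandas 2.3.3 with numpy 2.4.6 under Python 3.11.15 for the rest.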

Additional observations from a re-analysis of the deposited data

How the results depend on the processing

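The counts of called genes depend on the scale and on the minimum level. Genes called higher than in Ery 2 numbered 52, against 156 in globin-free CPM, 168 by the median of ratios, 92 with a minimum of 20 CPM and 250 with none. Genes called lower numbered 347, against 193, 98, 644 and 1766 under the same alternatives. Genes called higher than in Ery 4 numbered 446, against 151, 72, 845 and 2444. Genes called lower numbered 18, against 207, 257, 30 and 111, and 11 with the mean of single-cell CPM. With each library left out in turn the counts were 53 to 130, 384 to 477, 503 to 763 and 18 to 53; without replicate 2 the first was 130 and the last 53, and without replicate 1 the third was 763. Leaving out cells with under 1000 genes or over 10% mitochondrial UMIs, the 4% of cells with most UMIs, or (chosen after seeing the data) the numbered clusters 13 and 14 left each count within 1.5 times. The Rhd level averaged 1016 CPM over the libraries (812 to 1220 with each library alone) and Alas2 767 CPM (630 to 905; 974 in globin-free CPM). The share of cells in Ery 3 was 13.2% (12.7 to 13.6), or 18.5% of the cells left by the filter on genes and mitochondrial UMIs. The median globin share averaged 24.1% (17.1 to 31.0). The thinned share of Ery 3 cells with an Rhd UMI averaged 88.0% (82.3 to 93.7), or 99.3% without thinning. For 40 single genes under 8 settings, 0 of 320 ratios or levels changed direction. A change of scale moves all ratios of a comparison alike within a library, so this count is no measure of stability. No paired analysis was possible because no test was run: both libraries come from 1 liver. The minimum of 50 CPM was a choice; depth sets a floor of 0.390 and 0.367 CPM in Ery 3 (3 UMIs), and intervals cover counting error only.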

Other observations

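Ery 3 joins 2 numbered clusters of the deposited table, which split it close to where globin does. Cluster 7 held 290 and 291 cells with a median globin share of 10.2% and 20.5%, and cluster 0 held 458 and 353 cells with 20.5% and 37.8%. Cluster 7 made up 90.8% and 97.2% of the Ery 3 cells with the least globin and 1.6% and 3.26% of those with the most. In globin-free CPM, Npm3 was at 25.1 and 22.1 in cluster 0 against 86.3 and 96.3 in cluster 7, and Cdkn2d at 259 and 189 against 67.8 and 57.3. Alas2 was at 1551 and 1326 against 619 and 547. Egfl7, which encodes a secreted vascular protein, was at 18.1 and 18.9 against 50.8 and 67.4, and Psat1, an enzyme of serine synthesis, at 25.1 and 27.3 against 72.6 and 99.01. The clusters were made from these genes, so the values are a description.

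Among Ery 3 cells the share of non-globin UMIs from cytosolic ribosomal protein genes had a median of 24.6% in library 1 and 28.2% in library 2. Its rank correlation with globin share was -0.64 over 748 cells and -0.61 over 644 cells, a description of cells that share a library and differ in depth. For genes of G2 and mitosis the same correlation was 0.36 and 0.34, and for S phase genes 0.10 and 0.12.

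Mgst3, Nop58 and Nhp2 were named after their values were seen. Mgst3, a microsomal glutathione transferase gene, was at 805 and 680 CPM in Ery 2, 2348 and 1696 CPM in Ery 3, and 3263 and 2112 CPM in Ery 4. Nhp2, a component of small nucleolar ribonucleoproteins, was at 650 and 680, 230 and 250, and 49.9 and 40.1 CPM. Nop58, another such component, was at 399 and 390, 157 and 155, and 35.95 and 28.6 CPM.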
